A study of Mus musculus with 2 samples.

Results

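The erythroid-primed LSK cells were a rare set of bone marrow cells that carried transcripts of early red cell genes within the Lin-Sca-1+c-Kit+ (LSK) gate, which enriches for stem and multipotent progenitor cells. They were chosen on their measured transcripts. A called cell was a droplet barcode with at least 8000 unique molecular identifiers (UMIs, each counted as 1 captured transcript), under 10% of them from mitochondrial genes. A called cell was taken when it held a UMI of at least 2 of the 4 genes Klf1, Car1, Epor and Aqp1, and when fewer than 3 of the platelet-lineage genes Pf4, Cavin2, Gp1bb, Treml1 and Gp5 were detected. It also had to hold under 10 UMIs per 10000 summed over Mpo, Elane, Ctsg and Prtn3, which encode neutrophil granule proteins, and under 10 per 10000 summed over the mast cell and basophil proteases Prss34, Mcpt8, Cma1, Tpsb2 and Mcpt4. The rule found 80 of 10821 called cells, 48 of 5363 in the miR-142 WT library and 32 of 5458 in the miR-142 KO library. Since these genes chose the cells, every level set against other cells is a description and carries no test.

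The series holds 2 droplet single-cell RNA-seq libraries (10x Genomics, 3′ counting) of bone marrow LSK cells from mice 8 to 10 weeks of age. All mice of both libraries were BCR-ABL+, a model of chronic myeloid leukemia (CML) in which the Scl (Tal1) promoter drives a tetracycline-controlled activator and withdrawal of tetracycline switches on the BCR-ABL fusion kinase. The WT library came from mice with intact miR-142 and the KO library from Mir142 KO mice on the same BCR-ABL+ background. Whether a library pooled several mice is not given in the sources used here, and with 1 library per genotype the genotype cannot be told apart from the animals and the library, so no test across samples was possible and every interval below covers counting error only.

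Red cells arise from progenitors shared with megakaryocytes, the cells that shed platelets. GATA1 with its partners FOG1 (Zfpm1) and the TAL1-LMO2-LDB1 complex opens the erythroid program, and KLF1 (EKLF) then drives red cell genes from blood group antigens and membrane proteins to the globins. The erythropoietin receptor (Epor) signals through JAK2 and STAT5 and keeps committed progenitors alive, AQP1 is a water channel, and CAR1 and CAR2 are carbonic anhydrases, with Car1 a known mark of committed erythroid progenitors. The microRNA miR-142 is made in most blood cells from a precursor that yields a 5p and a 3p strand.

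Sequences of 2 kinds carry the comparison. The first are the mature strands removed by the knockout, printed 5′ to 3′ with the seed (bases 2 to 8 of each strand, which pair with target transcripts) in capitals, from RefSeq on build GRCm38.p6 (mm10), plus strand, at chr11:87756867-87756887 and chr11:87756903-87756925.
mmu-miR-142a-5p: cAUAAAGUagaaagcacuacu
mmu-miR-142a-3p: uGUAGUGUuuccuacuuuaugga
The seeds AUAAAGU and GUAGUGU differ, and the matching letters in a transcript's DNA are ACTTTAT and ACACTAC.

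The second are the promoters of 4 genes picked by name and not by a rule. Klf1 and Epor are 2 of the 4 marker genes that chose the cells. Rhd (the Rh blood group antigen) and Ermap (erythroblast membrane-associated protein, the Scianna blood group) were found almost only in cells with Car1. Each line holds the 250 bases before the RefSeq start on the coding strand (GRCm38.p6), with every match to GATAA or its reverse complement TTATC, the core of the letters GATA1 is known to bind, in capitals. They lie at chr8:84901732-84901981 (plus strand), chr9:21963577-21963826 (minus strand), chr4:134864286-134864535 (plus strand) and chr4:119189996-119190245 (minus strand).
Klf1: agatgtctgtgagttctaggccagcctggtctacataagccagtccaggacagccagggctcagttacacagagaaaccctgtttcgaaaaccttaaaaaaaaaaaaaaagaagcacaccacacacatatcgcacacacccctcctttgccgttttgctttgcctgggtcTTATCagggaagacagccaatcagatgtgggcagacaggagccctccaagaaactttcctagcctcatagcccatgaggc
Epor: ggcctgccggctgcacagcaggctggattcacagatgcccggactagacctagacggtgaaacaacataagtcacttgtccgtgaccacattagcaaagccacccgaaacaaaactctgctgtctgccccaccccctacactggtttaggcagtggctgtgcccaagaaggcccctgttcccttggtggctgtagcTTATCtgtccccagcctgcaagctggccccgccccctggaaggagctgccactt
Rhd: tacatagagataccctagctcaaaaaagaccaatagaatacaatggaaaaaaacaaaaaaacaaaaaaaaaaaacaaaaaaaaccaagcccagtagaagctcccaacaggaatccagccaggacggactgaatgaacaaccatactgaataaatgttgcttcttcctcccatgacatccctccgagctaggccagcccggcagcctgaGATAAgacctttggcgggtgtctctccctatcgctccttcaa
Ermap: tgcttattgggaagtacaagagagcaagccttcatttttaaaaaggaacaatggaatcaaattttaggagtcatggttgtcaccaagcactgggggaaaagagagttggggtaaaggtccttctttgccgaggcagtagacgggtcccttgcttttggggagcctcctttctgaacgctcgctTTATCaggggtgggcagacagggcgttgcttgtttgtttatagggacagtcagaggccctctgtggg
Each of the 4 held 1 match, whose first base lay 80 bases before the start in Klf1, 54 in Epor, 42 in Rhd and 67 in Ermap. Such a match stood in 22.6% of all 32851 promoters of this length and in 14.4% of the 5689 promoters of genes compared below. CCACCC or GGGTGG, letters that KLF1 is known to bind, had 2 matches in the Epor window, 1 in Ermap and 0 in Klf1 and Rhd, and stood in 28.1% of all promoters. A match is a description of the letters and not a bound site. The promoters of Car1, Car2 and Samd14 were not analysed here. That of the marker gene Aqp1 is not printed, so the 4 windows do not stand for all genes of the set.

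In the GRCm38 (mm10) annotation the 4 marker genes are Klf1 (ENSMUSG00000054191, chr8:84901928-84905291, plus strand), Car1 (ENSMUSG00000027556, chr3:14766216-14808368, minus strand), Epor (ENSMUSG00000006235, chr9:21958897-21963506, minus strand) and Aqp1 (ENSMUSG00000004655, chr6:55336432-55348555, plus strand). The cells chosen in this way were few, and most were taken on the lowest number of markers. Of the 48 WT cells 26 held 2 of the 4 genes, 13 held 3 and 9 held all 4, and of the 32 KO cells 22, 7 and 3 did. Epor was detected in 37 WT and 25 KO cells, Klf1 in 36 and 19, Aqp1 in 35 and 21, and Car1 in 19 and 12. The most frequent pairs were Epor with Aqp1 (11 WT and 9 KO cells) and Klf1 with Epor (8 and 9). WT cells had a median of 18598 UMIs and KO cells of 14891, below the medians over all called cells of 19443 and 24181.5 respectively, and mitochondrial shares of 2.83% and 1.99% that matched those of the other cells of each library (2.85% and 2.0%). Only 4 cell barcodes were called in both libraries.

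As a share of called cells the erythroid-primed cells made up 0.895% in WT (exact 95% interval 0.661% to 1.18%) and 0.586% in KO (0.401% to 0.827%), a KO minus WT difference of -0.309 percentage points (-0.646 to 0.029) whose interval includes 0. The denominator matters to this order. Granule-rich cells, those over the granule limit, made up 3105 of the WT and 4608 of the KO called cells. Among the cells within the granule and mast cell limits the share was 2.23% in WT (48 of 2153, 1.65% to 2.95%) and 4.35% in KO (32 of 735, 2.997% to 6.09%), the opposite order. Cells with at least 2 of the 4 markers before any other limit numbered 124 in WT (2.31%) and 62 in KO (1.14%), and the platelet-lineage limit removed 65 and 23 of them, the granule limit 9 and 7 and the mast cell limit 5 and 1. When every called cell was thinned to 8000 UMIs before the rule was applied, it found 37 WT cells (0.690%, 0.486% to 0.95%) and 21 KO cells (0.385%, 0.238% to 0.588%). Of the 48 and 32 cells, 25 and 17 were among these.

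Free RNA in droplets gives UMIs in cells that do not express a gene, so detection was set beside that in granule-rich cells. For Klf1 and Epor the rule itself fixed a high share, and their values are a description. With each cell thinned to 8000 UMIs, Klf1 was detected in 43.8% of WT and 37.5% of KO erythroid-primed cells, against 0.612% and 0.694% of granule-rich cells, which should lack it, at median depths before thinning of 18598 and 14891 UMIs against 24587 and 27981.5. Epor was found in 43.8% and 59.4% against 0.29% and 0.304%. Gata1, which the rule did not use, was detected in 37.5% and 56.2% of erythroid-primed cells against 1.55% and 2.3% of granule-rich cells. The globin gene Hbb-bt was detected in no larger a share than elsewhere, at 12.5% and 25% of erythroid-primed cells against 19% and 27.8% of all other called cells. The granule gene Elane was found in 8.33% and 18.8% of them, less often than in other cells (25.3% and 63%), as the rule requires. The sort gene Ly6a, which encodes Sca-1, was detected in 27.1% and 25% of thinned erythroid-primed cells and in 49.8% and 52% of the other cells. Kit, the other sort gene, was found in 50% and 34.4% against 51.2% and 40.5%. Before thinning these shares were 75% and 59.4% for Klf1, 43.8% and 37.5% for Ly6a, and 87.5% and 62.5% for Kit.

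The values on both sides of the marker threshold are given as a description, since the rule sets the step in its own genes. In cells with exactly 2 markers Klf1 stood at 40.5 CPM (the share of the summed UMIs, scaled to 1000000) in WT and 34.8 in KO, and in cells with exactly 1 marker that passed the other limits (201 WT and 80 KO cells) at 5.54 and 19.2. Car1 was at 162 CPM in WT and 43.5 in KO just inside and at 8.03 and 11.9 just outside. Gata1 was at 74.3 and 119 CPM just inside the rule and at 35.4 and 42.0 just outside. Car2 hardly differed across it in WT, at 592 CPM inside and 643 outside, and was at 389 and 274 in KO.

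The genes that stood out most from the other called cells of the same library were largely known erythroid genes, in both libraries. Car1 led with 794-fold in WT and 1302-fold in KO, followed by Klf1 (112-fold and 96.7-fold), and both are rule genes. Of the genes outside the rule with at least 50 CPM in the erythroid-primed cells of both libraries, the highest by the lower of the 2 folds were Gm15915, a long non-coding gene (75.6 and 128-fold in WT and KO), Abcb4, a phospholipid transporter (27.8 and 35-fold), and Samd14, a GATA-regulated adaptor of Kit signalling (16.2 and 34.7-fold). Mfsd2b, the sphingosine-1-phosphate exporter of red cells and platelets, was 14.3 and 36.9-fold higher. Gata1 was 12.5 and 24.8-fold higher, and Gfi1b, a transcriptional repressor needed in both lineages, 6.53 and 11.6-fold. Blvrb, biliverdin reductase B of haem breakdown, was 12 and 13.1-fold higher, Icam4, a Landsteiner-Wiener blood group antigen, 6.75 and 8.03-fold and Cpox of haem synthesis 4.66 and 4.09-fold. Apoe, the lipid carrier apolipoprotein E, was 7.23 and 7.22-fold higher and Car2 4.46 and 11.3-fold. Of the 25 such genes with the highest fold in the lower of both libraries, rule genes included, 18 had a RefSeq promoter, and 6 of their 21 promoters (28.6%) held GATAA or TTATC while 13 (61.9%) held CCACCC or GGGTGG.

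Alas2, Slc4a1, Dmtn and Epb42, genes of late red cell maturation, were near 0. The globin list summed to 20.5 CPM in WT and 963 in KO, where 1 cell described below held most of its UMIs. Alas2, the erythroid enzyme that starts haem synthesis, had 0 UMIs in WT and 1 in KO over all the cells, and Slc4a1 (band 3, the anion exchanger) had 0 in both. Dmtn (dematin) had 0 in WT and 1 in KO, and Epb42, which anchors band 3, had 0 and 3. A count of 0 over 1073449 WT or 559906 KO UMIs allows up to 3 counts. Early genes of the lineage were detected, and so were the red cell genes Tspo2, Ermap and Rhd, almost only in cells with Car1 as given below. The label erythroid-primed describes the measured transcripts. The label is borne out least in the 29 WT and 20 KO cells without a Car1 UMI, whose platelet-lineage levels are given below.

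The nearest cells were those marked as megakaryocytic (3 or more of the 5 platelet-lineage genes, 207 WT and 118 KO cells), and part of the erythroid genes did not separate the sets. Over these cells Car1 was 83.2 and 23.2-fold higher in the erythroid-primed cells of WT and KO, Klf1 9.19 and 13.5-fold, Blvrb 4.33 and 3.11-fold, Aqp1 3.78 and 3.74-fold and Epor 2.9 and 3.44-fold. Genes that both lineages use differed less. Gata1 was at 1.35 and 1.71 times the level of the megakaryocyte-marked cells in WT and KO, Gfi1b at 1.22 and 0.907 times, Zfpm1 at 0.846 and 0.843 times and Mfsd2b at 1.04 and 1.24 times. Itga2b (CD41, the integrin of platelets and early progenitors) was detected in 43.8% of WT and 81.2% of KO erythroid-primed cells after thinning, between the other cells (26% and 26.3%) and the megakaryocyte-marked ones (77.8% and 95.8%). In the plot of folds, the genes shown lie above the other called cells in both libraries. The folds of Samd14, Mfsd2b, Gata1 and Car2 were larger in KO, and that of Mt2 was smaller. The part of granule-rich cells among the other cells in these folds was not tested.

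**Figure D1:**
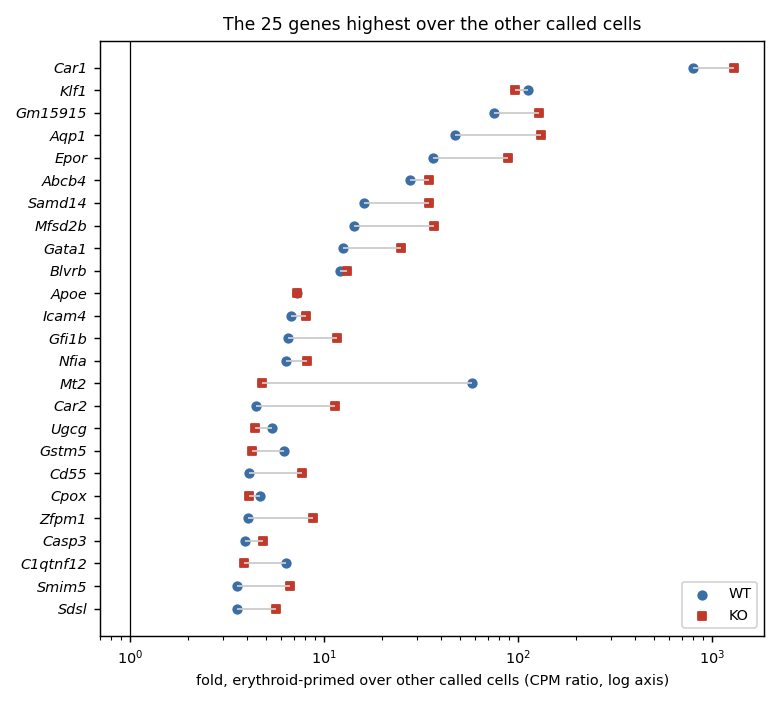
Fold of each gene's CPM in the erythroid-primed cells over the other called cells of the same library (log axis) for the 25 genes with the highest fold in the lower of both libraries, WT and KO as separate points. Car1 stands at 794-fold in WT and 1302-fold in KO, and Mt2 is the gene with the widest gap between libraries (57.9-fold and 4.78-fold).

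Within the erythroid-primed cells, detection of Car1 went with a wider red cell program. The split was chosen after the values were seen and uses a rule gene, so it is a description. It parts 19 WT cells with a Car1 UMI (39.6%, exact 95% interval 25.8% to 54.7%, median 26038 UMIs) from 29 without (median 17668), and 12 KO cells with one (37.5%, 21.1% to 56.3%, median 18691) from 20 without (median 13086). The Car1-positive cells were deeper in both libraries, and the part of depth in who is positive was not tested. Among the red cell genes, Tspo2, the erythroid cholesterol-binding translocator, had 99 UMIs in 16 WT Car1-positive cells and 0 in the Car1-negative ones, and 27 UMIs in 8 cells against 0 in KO. Ermap had 81 UMIs in 11 cells against 0 in WT and 13 in 3 cells against 0 in KO. Rhd had 39 against 1 UMIs in WT, and in KO 30 against 0, all 30 in 1 cell. These blood group genes were nearly silent without Car1. Rhag, which carries the Rh antigens to the membrane, had 34 against 3 UMIs in WT and 16 against 1 in KO. Smim1, the Vel blood group antigen, had 34 against 2 in WT and 18 against 1 in KO.

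Other genes differed by degree. Blvrb was at 608 CPM with Car1 and 53.4 without in WT, a log2 ratio of 3.51 (2.95 to 4.12), and at 495 and 93.9 in KO, 2.40 (1.81 to 3.03). Klf1 was at 179 and 38.1 CPM in WT (2.23 on the log2 scale) and 146 and 40.7 in KO (1.84). Car2 was at 1239 and 642 CPM in WT and 1103 and 369 in KO. A single KO cell with Car1, described below, held 79 UMIs of Blvrb, 19 of Klf1 and 134 of Car2. It held 36381 of the 240342 UMIs of the KO cells with Car1. These KO values thus rest in large part on 1 cell, and the split without it was not tested. Myb, the progenitor transcription factor, was at 406 and 215 CPM in WT and 395 and 247 in KO. The receptor and Gata2 did not follow Car1, and Gata1 followed it in WT only. Epor was at 61.9 CPM with Car1 and 62.9 without in WT, and at 45.8 and 93.9 in KO. Gata1 was at 106 and 64.8 CPM in WT and at 95.7 and 116 in KO. After thinning it was detected in 57.9% of cells with Car1 and 24.1% without in WT, and in 41.7% and 65% in KO. Gata2, the earlier GATA factor of stem and progenitor cells, was at 137 and 156 CPM in WT and 245 and 207 in KO. Since a cell needed 2 of 4 markers, a cell without Car1 had to hold Klf1, Epor or Aqp1, which bears on the levels of those 3 genes in it.

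Cells without Car1 held more transcripts of platelet-lineage genes, and the stem cell list had a summed median of 15.1 UMIs per 10000 with Car1 and 34.9 without, against 25.1 and 29.4 in KO, with overlapping ranges in both libraries. Angpt1, a ligand made by stem cells, was at 47.4 CPM with Car1 and 223 without in WT and 66.6 and 169 in KO. Itga2b was at 25.5 with Car1 and 160.1 without in WT (-2.65 on the log2 scale) and at 171 and 282 in KO (-0.72). Gp9, a subunit of the platelet von Willebrand receptor, was at 16.4 and 66.7 CPM and at 20.8 and 72. Pf4, which the rule used, had 0 UMIs with Car1 and 26 without in WT and 1 and 10 in KO. The summed megakaryocyte list had a median of 5.58 UMIs per 10000 in WT Car1-positive cells (lowest 1.49, highest 24.1) and 24.9 in Car1-negative ones (6.14 and 40.2), and of 9.22 (1.65 and 31.7) and 30.9 (8.71 and 57) in KO, so the ranges overlapped while the medians differed. The other called cells had 8.94 in WT and 5.9 in KO, and the megakaryocyte-marked cells 32.6 and 50.3. On the megakaryocyte-erythroid progenitor list Car1-negative cells had medians of 52 in WT and 57.2 in KO, near the megakaryocyte-marked cells (52.9 and 61). Car1-positive cells had 68.7 and 74.8 there. The sort gene Ly6a was found in 3 of 19 Car1-positive and 18 of 29 Car1-negative WT cells, and in 3 of 12 and 9 of 20 KO cells. Of the 20 genes with the highest ratio in the lower of both libraries, 9 of 20 promoters (45%) held GATAA or TTATC, and of the 20 genes on the other side 6 of 19 (31.6%). CCACCC or GGGTGG gave the same counts, 9 of 20 and 6 of 19. Over the promoters of all compared genes the shares were 14.4% for the first motif and 30.6% for the second.

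**Figure D2:**
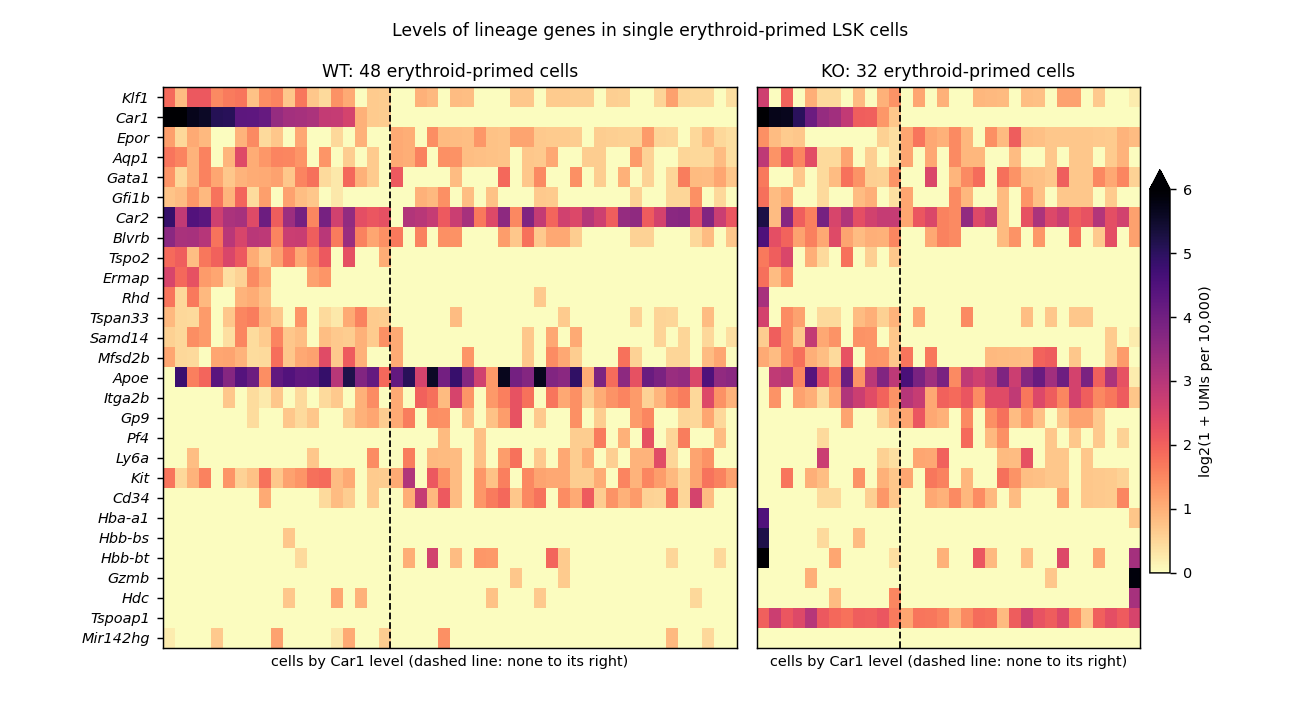
Level of lineage genes (rows) in each of the 48 WT and 32 KO erythroid-primed cells (columns, ordered by Car1 level, with no Car1 to the right of the dashed line), coloured as log2 of 1 plus UMIs per 10000. Tspo2 and Ermap are found only left of the line, Itga2b fills more of the KO columns (30 of 32) than of the WT ones (35 of 48), and Tspoap1 is present in all 32 KO cells.

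**Figure D3:**
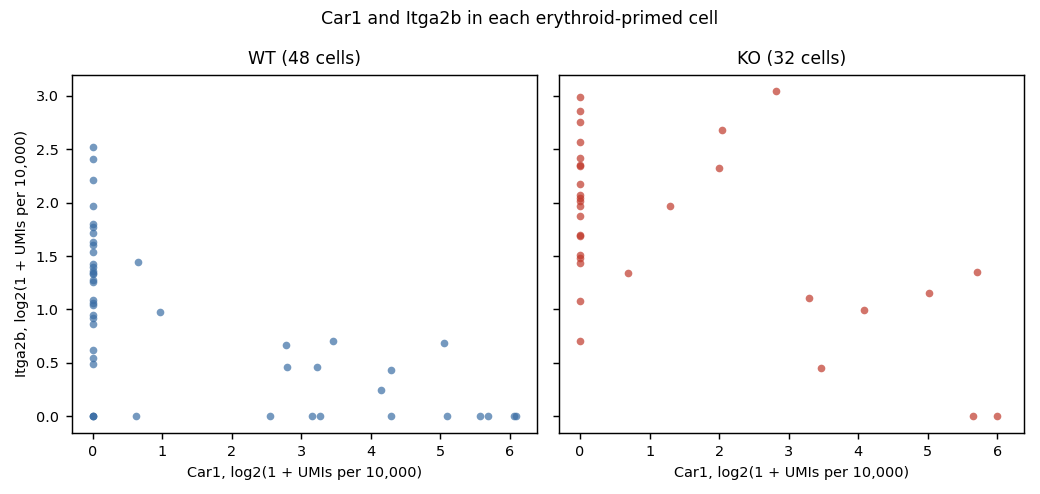
Car1 (horizontal) against Itga2b (vertical) for each of the 80 cells, both as log2 of 1 plus UMIs per 10000, 1 point a cell, with WT and KO in separate panels. Before the log, Car1 reaches 67.0 in WT and 62.7 in KO, while Itga2b has medians of 0.854 in WT and 2.79 in KO.

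For the comparison of genotypes the UMIs of the 48 WT and of the 32 KO cells were summed (1073449 and 559906 UMIs) and set against each other as CPM, with log2 ratios of KO over WT and exact 95% counting intervals in parentheses. The knocked-out locus was checked first. Mir142hg, the host transcript of the microRNA, had 13 UMIs in WT and 0 in KO, where 0 allows up to 3 counts. Tspoap1, the neighbouring gene on chromosome 11, had 0 UMIs in WT and 178 in KO, with at least 1 in 32 of 32 KO cells and a median of 3.02 and a highest value of 6.96 UMIs per 10000. Set against the floor of 3 counts its log2 ratio was at least 6.83, beside 6.39 in the other called cells. Of the 5566 genes with a mean of at least 20 CPM over both libraries, 146 (2.62%) stood 2-fold or more above WT in KO and 117 (2.1%) stood 2-fold or more below, and at 1.5-fold 552 (9.92%) stood above and 496 (8.91%) below. The median log2 ratio was 0.01, against -0.07 in the other called cells. Those cells differed in make-up, since granule-rich cells were 3105 of 5363 called cells in WT and 4608 of 5458 in KO. The part of this mix in their ratios, here and below, was not tested. The counting interval left out 0 for 843 genes, and lay wholly past 2-fold for 25 genes higher and 8 lower in KO. A single KO cell held 50% or more of the UMIs of 20 of the 146 genes.

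**Figure D4:**
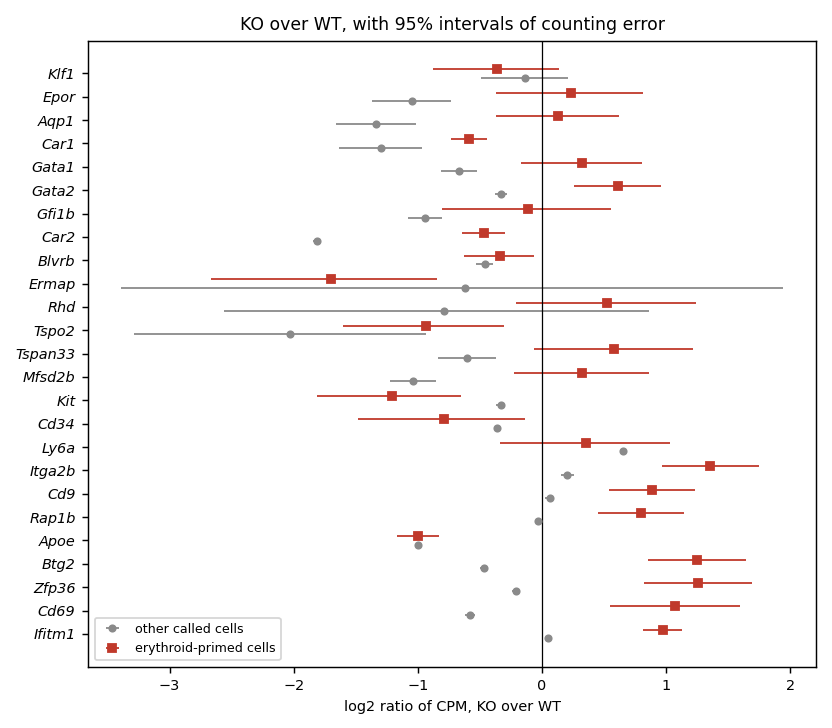
Log2 ratio of KO over WT CPM for 25 genes in the erythroid-primed cells (squares) and in the other called cells of the same libraries (circles), with bars for the exact 95% counting interval. Itga2b (1.36) and Kit (-1.21) lie on opposite sides of 0 in the erythroid-primed cells, and Apoe (-1.0 and -0.99) is alike in both sets.

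The values of the erythroid rule genes are given as a description, and 1 KO cell held a large part of the KO UMIs of some. Klf1 was at 109.9 CPM in WT and 85.7 in KO, a log2 ratio of -0.36 (-0.87 to 0.14), and per cell ranged from 0 to 3.35 UMIs per 10000 in WT (median 0.568) and from 0 to 5.22 in KO (median 0.491). Epor was at 62.4 CPM in WT and 73.2 in KO, 0.23 (-0.37 to 0.81), and Aqp1 at 91.3 CPM in WT and 100.02 in KO, 0.13 (-0.37 to 0.62). These 3 intervals include 0, and the ranges over cells overlap. A single KO cell held 19 of the 48 KO UMIs of Klf1 and 23 of the 56 of Aqp1. Without that cell and a second one that stood apart, both described below, the log2 ratios were -0.85 for Klf1, -0.35 for Aqp1, 0.062 for Epor and -1.14 for Car1. Car1 was at 1384 CPM in WT and 923 in KO, -0.58 (-0.73 to -0.44), with a median of 0 UMIs per 10000 in both and a highest value of 67 in WT and 62.7 in KO. That direction is not stable, since it was 0.37 without cells over 2 times the median depth of their library and 0.05 in cells with at least 3 of the markers. Car2 was at 947 CPM in WT and 684 in KO, -0.47 (-0.64 to -0.30), beside -1.81 in the other cells, and turned to 0.05 without the deep cells.

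Erythroid transcription factors outside the rule sat near the level of all genes. The 24 genes of the list that were compared had a median log2 ratio of 0.00, with 12 above 0 and 12 below, 2 at least 1.5-fold higher and 2 lower, and a median of -0.36 in the other cells. Gata1 was at 85.7 CPM in WT and 107 in KO, 0.32 (-0.17 to 0.81), where the other cells had -0.67. After thinning Gata1 was detected in 5.78% of WT and 4.81% of KO other called cells. Among the granule-rich ones alone the order was opposite, at 1.55% and 2.3%. Gata2, the factor that GATA1 replaces as red cells commit, was at 146 CPM in WT and 223 in KO, 0.61 (0.26 to 0.96), with -0.33 in the other cells. Tal1 had a log2 ratio of 0.42 (-0.24 to 1.08), Gfi1b -0.11 (-0.80 to 0.55) and Zfpm1 0.22 (-0.19 to 0.62), none of them separated from 0. Ldb1, which bridges distant GATA1 sites, was lower at -0.91 (-1.70 to -0.18), and Ikzf1, a lymphoid and myeloid factor, had -0.80 (-1.52 to -0.12). Hemgn, a nuclear protein of progenitors, had 0.67 (-0.03 to 1.36) and Myb -0.01 (-0.28 to 0.26).

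In erythropoietin and Kit signalling the receptor Kit was lower in KO. It was at 132 CPM in WT and 57.2 in KO, -1.21 (-1.81 to -0.65), with a UMI in 42 of 48 WT and 20 of 32 KO cells, a median of 1.11 and 0.612 and a highest value of 7.3 and 2.45 UMIs per 10000, and -0.33 in the other cells. After thinning the shares of cells with a Kit UMI were 50% in WT and 34.4% in KO. The megakaryocyte-marked cells had a like fall, with 44.4% in WT and 30.5% in KO. The phosphatase Ptpn11 (SHP2), which acts below both receptors, had 28 and 31 UMIs, 1.09 (0.30 to 1.88), and the feedback inhibitor Socs3 10 and 18, 1.79 (0.59 to 3.06). Jak2 had a log2 ratio of 0.56 (-0.36 to 1.46), Stat5a 0.11 (-0.53 to 0.73) and the STAT5 target Pim1 0.11 (-0.21 to 0.41). Over the 17 genes compared the median was 0.11, with 12 above 0 and 5 below, 3 at least 1.5-fold higher and 2 lower, and -0.18 in the other cells.

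Haem synthesis and iron genes lay slightly above 0, and 2 genes of the list were the clearest by counts. Its 25 genes compared had a median log2 ratio of 0.12 (18 above 0 and 7 below, 4 at least 1.5-fold higher and 1 lower), beside 0.11 in the other cells, and the median turned to -0.06 without 2 KO cells described below. Tmem14c, which carries porphyrins into the mitochondrial matrix, was at 287 CPM in WT and 434 in KO, 0.60 (0.35 to 0.84), and Ftl1, the ferritin light chain, at 980.02 CPM in WT and 1322 in KO, 0.43 (0.29 to 0.57). Of the enzymes, Urod had 0.25 (-0.25 to 0.74), Alad 0.03 (-0.50 to 0.55) and Blvrb -0.34 (-0.63 to -0.06). Blvrb turned to 0.061 with at least 3 of the 4 markers, 0.80 with no platelet-lineage marker, 0.25 without the deep cells and 0.81 among the Car1-negative cells, and was -1.32 without the 2 KO cells. The mitochondrial transporter Abcb10 had 15 and 22 UMIs, 1.49 (0.48 to 2.54).

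Membrane and blood group genes were mixed. The 21 genes compared had a median log2 ratio of 0.03, 11 above 0 and 10 below, with 3 at least 1.5-fold higher and 5 lower, beside -0.53 in the other cells. Cd55, the complement regulator of the Cromer blood group, had 0.80 (0.27 to 1.33), which turned to -0.25 in the 16 WT and 5 KO cells with no platelet-lineage marker, and Cd47, the signal that protects red cells from phagocytes, 0.33 (0.15 to 0.51). On the lower side Ermap had 81 and 13 UMIs in 11 and 3 cells, -1.70 (-2.67 to -0.85), Tspo2 was at 92.2 CPM in WT and 48.2 in KO, -0.94 (-1.61 to -0.31), and Gcnt2, the I blood group branching enzyme, had 53 and 4 UMIs, -2.79 (-4.72 to -1.35). Rhd had 0.52 (-0.21 to 1.24), but its 30 KO UMIs came from 1 cell. Ermap and Tspo2 are genes of the Car1-positive cells, and among those cells alone their log2 ratios were -1.45 (-2.42 to -0.59) and -0.68 (-1.35 to -0.06). The WT cells with 54212 and 60491 UMIs held 20 and 28 of the 81 Ermap UMIs, and 1 KO cell held 9 of the 13. Both ratios of Ermap thus rest mostly on a few deep cells.

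Of the genes that megakaryocyte and erythroid progenitors share, Itga2b was higher in the KO erythroid-primed cells, at 91.3 CPM in WT and 234 in KO, a log2 ratio of 1.36 (0.97 to 1.75), beside 0.20 in the other called cells. It was detected in 35 of 48 WT and 30 of 32 KO cells, with a median of 0.854 and 2.79 and a highest value of 4.74 and 7.27 UMIs per 10000. KO cells sat higher while the ranges overlapped. The ratio lay between 0.81 and 2.74 under every alternative run, and was 2.74 (1.84 to 3.73) among Car1-positive and 0.81 (0.37 to 1.26) among Car1-negative cells. The nearest cells were also higher in KO. Cells with exactly 1 marker that passed the other limits had Itga2b at 113.5 CPM in WT and 346 in KO. After thinning, 77.8% of WT and 95.8% of KO megakaryocyte-marked cells held an Itga2b UMI. Cd9, a tetraspanin of platelets and early progenitors, was at 135 CPM in WT and 250.04 in KO, 0.89 (0.54 to 1.23), with a UMI in 39 of 48 and 32 of 32 cells. F2r, the thrombin receptor, was at 82 CPM in WT and 173 in KO, 1.08 (0.65 to 1.51), with -0.49 in the other cells, and Rap1b, a small GTPase that activates platelet integrins, at 141 CPM in WT and 245 in KO, 0.80 (0.45 to 1.14), which turned to -0.37 in cells with at least 3 of the 4 markers. Gp9 had 0.29 (-0.45 to 1.0). Over the megakaryocyte list the 14 genes compared outside the rule had a median log2 ratio of 0.18 (8 above 0 and 6 below, 5 at least 1.5-fold higher and 2 lower), with a summed level of 1429 CPM in WT and 1950.3 in KO, and the part of platelet-lineage transcripts in the other differences was not tested.

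The 30 genes compared of the megakaryocyte-erythroid progenitor list had a median log2 ratio of 0.20 (19 above 0 and 11 below, 6 at least 1.5-fold higher and 6 lower), beside -0.44 in the other cells. Apoe was at 1318 CPM in WT and 661 in KO, -1.0 (-1.17 to -0.83), with a like ratio in the other cells (-0.99). Mt2, a metallothionein, had -0.91 (-1.36 to -0.48) where the other cells had 2.69, and it turned to 2.13 among the Car1-negative cells, to 0.59 after thinning and to 0.044 without the deep cells. Of the sort genes Ly6a had 0.35 (-0.34 to 1.03), with 15 of its KO UMIs in 1 cell. Cd34, the sialomucin of progenitors, had -0.79 (-1.48 to -0.14), which turned to 0.49 among the Car1-positive cells.

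Of genes named by size alone, several had most of their UMIs in single KO cells and are described with those cells below. Spread over cells, Hes1, a Notch target, had 5 and 30 UMIs in 5 and 10 cells, 3.52 (2.14 to 5.25), with 1.44 in the other cells. Itgb7, an integrin chain of progenitors and mast cells, had 14 and 36 UMIs in 11 and 15 cells, 2.30 (1.38 to 3.31), and Ms4a3, a gene of granulocyte-monocyte progenitors, 17 and 40 in 13 and 18, 2.17 (1.32 to 3.09) (1.45 in the other cells). The granule list, whose levels the rule caps, stood at 1836 CPM in WT and 2617 in KO erythroid-primed cells against 9809 and 20735 in the other cells. The few genes compared of other lineages had medians of 0.43 over 7 granule genes outside the rule, 0.49 over 4 monocyte, 0.27 over 3 lymphoid and 0.76 over 10 mast cell and basophil genes, and the part of these transcripts in the ratios of other genes was not tested.

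Among the genes lowest in KO, Igkc, the antibody light chain, had 54 UMIs in 27 of 48 WT cells and 0 in KO. It was also present in free RNA, at 5682 CPM in WT and 85.2 in KO barcodes with at most 100 UMIs, and its part in the cells' value was not tested. Lower in the erythroid-primed cells and not in the others was Gatm, of creatine synthesis, with 130 and 19 UMIs, -1.84 (-2.61 to -1.13), beside 0.76. Tcrg-C1, a T cell receptor γ constant gene, had 85 and 9 UMIs, -2.30 (-3.48 to -1.31), and stood 29 and 19.1-fold over the other cells of WT and KO. Mthfd1, of folate metabolism, had 69 and 9 UMIs, -2.0 (-3.19 to -0.99), Cxxc5, a zinc finger protein, 56 and 9, -1.70 (-2.90 to -0.67), and Dock10, a guanine nucleotide exchange factor, 73 and 13, -1.55 (-2.53 to -0.69). The carboxylesterase Ces2g, which was found mostly with Car1, had 88 and 15 UMIs, -1.61 (-2.51 to -0.81).

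Stem cell genes were mixed. The 18 genes compared had a median log2 ratio of 0.05 (9 above 0 and 9 below, 2 at least 1.5-fold higher and 4 lower), against -0.85 in the other cells. Hlf, a factor of long-term stem cells, had 48 and 3 UMIs, -3.06 (-5.39 to -1.43), whereas Ifitm1 was at 618 CPM in WT and 1213 in KO, 0.97 (0.82 to 1.13), beside 0.05 in the other cells. Interferon-stimulated genes leaned lower in KO, with a median log2 ratio of -0.37 over 15 genes (3 above 0 and 12 below, 0 at least 1.5-fold higher and 6 lower, where 8.91% of all genes were) and -0.45 in the other cells. Isg15 had 48 UMIs in WT and 0 in KO, where 0 allows 3 counts, and Trim30a 43 and 6, -1.90 (-3.43 to -0.66).

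Immediate-early and NF-κB response genes leaned higher in KO. The 18 genes compared had a median log2 ratio of 0.43 (15 above 0 and 3 below, 9 at least 1.5-fold higher, where 9.92% of all genes were, and 0 lower), against -0.20 in the other cells, and the median turned to -0.03 with called cells of at least 16000 UMIs, which kept 36 WT and 15 KO cells. Zfp36, which destabilises cytokine transcripts, was at 76.4 CPM in WT and 182 in KO, 1.25 (0.82 to 1.69), beside -0.21 in the other cells, and Btg2, an anti-proliferative gene, at 93.2 CPM in WT and 221 in KO, 1.25 (0.86 to 1.64), beside -0.47. Cd69, an activation antigen, had 1.07 (0.55 to 1.60) beside -0.58, and turned to -0.12 after thinning. Jun had 0.00 (-0.16 to 0.16).

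Mitochondrially encoded transcripts were lower in KO, with a median log2 ratio of -0.48 over 13 genes (1 above 0 and 12 below), as in the other cells (-0.44). Nuclear genes of oxidative phosphorylation had a median log2 ratio of 0.07 over 76 genes (47 above 0 and 29 below, 0 at least 1.5-fold higher and 1 lower), beside 0.20. Glycolysis genes had a median log2 ratio of 0.38 over 13 genes (12 above 0 and 1 below), and this became -0.03 without cells over 2 times the median depth. S phase genes had a median log2 ratio of -0.15 over 41 genes and G2/M genes a median log2 ratio of 0.15 over 51 (35 above 0 and 16 below, 8 at least 1.5-fold higher and 1 lower), and the G2/M median turned to -0.05 without 2 KO cells, to -0.09 with equal weight to each cell and to -0.06 after thinning. The antioxidant genes of red cells had a median log2 ratio of -0.02 over 20 genes. The plot of list medians sets these values beside those of the other cells.

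**Figure D5:**
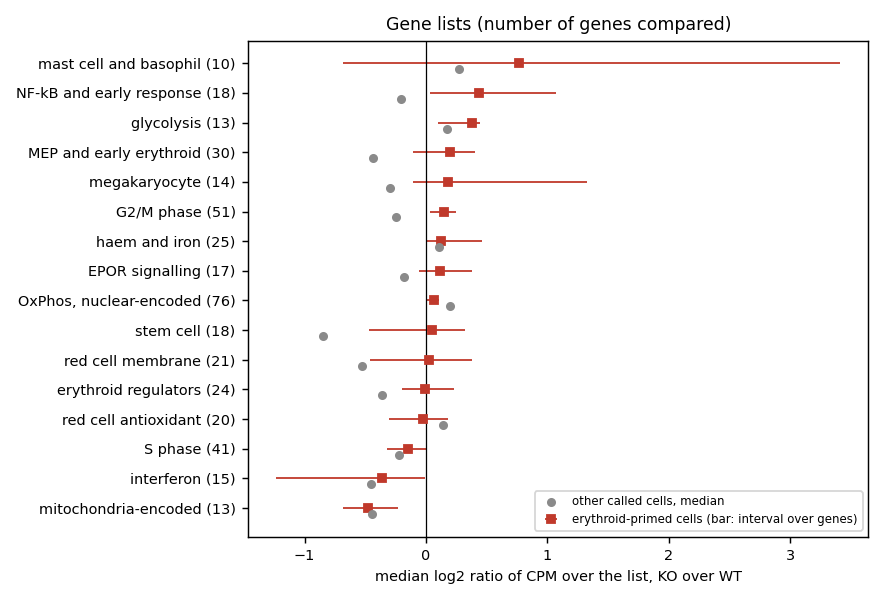
Median log2 ratio of KO over WT of each gene list in the erythroid-primed cells, with the 95% order-statistic interval of the median over its genes as a bar and the median in the other called cells in grey. The NF-κB and early response list sits at 0.43 against -0.20 in the other cells, and the mitochondrially encoded genes at -0.48 against -0.44.

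A pair of KO cells stood apart and held most of the UMIs of several genes named by size. They were singled out after the values were seen. The first had 63140 UMIs and held 365 of the 367 KO UMIs of Gzmb (granzyme B), 53 of Hdc (histidine decarboxylase) and 25 of the basophil protease Mcpt8, with 5 of Epor, 1 of Klf1 and 0 of Car1. These are genes of basophils and mast cells, and the cell passed the mast cell limit by its depth-scaled sum. The second had 36381 UMIs and held 132 of the 134 KO UMIs of Hbb-bs, 78 of 82 of Hba-a1 and 229 of 303 of Hbb-bt, the adult globin genes, along with 228 of Car1, 19 of Klf1 and all 30 of Rhd. In the heat map of single cells they are the last and the first of the KO columns. In WT the sums of these globins were 1 UMI of Hbb-bs, 0 of Hba-a1 and 21 of Hbb-bt, and the log2 ratios of KO over WT were 8.01 (5.50 to 13.32) for Hbb-bs, at least 5.71 for Hba-a1 and 4.79 (4.15 to 5.50) for Hbb-bt, so they describe that cell. The log2 ratio of Gzmb was 8.46 (6.60 to 11.51). Ctsc, Furin and Tmem245 also had 83.8%, 67.5% and 89.6% of their KO UMIs in 1 cell, and Tmem245 turned from 2.20 to -1.52 without the pair.

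Genes with a miR-142 site were set beside all others, a comparison added after the data were seen. Of 5464 compared genes with a 3′ UTR in the annotation, 9.75% were higher in KO by 1.5-fold or more and 8.77% lower, with a median of 0.02. The 339 genes whose longest 3′ UTR held the 3p seed match ACACTAC had a median log2 ratio of 0.11 (0.017 with no expression floor), with 53 (15.6%) at least 1.5-fold higher and 24 (7.08%) lower. With an A after the match, 143 genes had 0.13, with 27 (18.9%) higher and 14 (9.79%) lower. The 826 genes with the 5p match ACTTTAT had 0.01, with 10.0% higher and 7.75% lower. In the other called cells the medians were -0.07 for the 3p and -0.12 for the 5p matches, and the median for all was -0.07. The genes named here were picked after their values were seen. The 5 highest 3p-site genes were Rgl2, a Ral exchange factor, with 8 and 25 UMIs, 2.58 (1.39 to 3.94), Tsen34, of tRNA splicing, with 40 and 68, 1.70 (1.12 to 2.31), Gna11, a G protein subunit, at 1.54 (0.78 to 2.33), Cd151, a tetraspanin, at 1.46 (0.65 to 2.29), and Dcakd, at 1.40 (0.40 to 2.42). In the other cells these genes were at 0.88, 1.53, 1.76, 1.03 and 0.87. Toward the low end lay Tbc1d9b, with 34 and 6 UMIs, -1.56 (-3.11 to -0.29), Sgms1, sphingomyelin synthase 1, with 59 and 13, -1.24 (-2.23 to -0.36), and Msi2, an RNA-binding protein of stem and progenitor cells, with 112 and 32, -0.87 (-1.48 to -0.29). These were at 0.05, -1.46 and -1.29 in the other cells.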

How the data were processed

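The authors sorted bone marrow LSK cells of 1 miR-142 WT and 1 miR-142 KO sample, captured them on the 10x Genomics platform and deposited raw UMI counts per gene and barcode (mm10). The submitters' processing notes name Cell Ranger 6.1.2, while the file headers name version 4. The deposited matrices hold 1957898 WT and 2055088 KO barcodes with 170881210 and 187721815 UMIs. The study's stated filter (over 300 UMIs and under 10% mitochondrial) left 8525 and 7099 barcodes. Here a called cell had at least 8000 UMIs, which kept 5363 and 5458 cells after the mitochondrial limit removed 24 and 4. No doublet caller was run, and an alternative left out cells over 2 times the median UMIs. The members of the set and all gene lists were chosen with earlier results of these data known. UMIs of the members were summed per library and scaled to CPM, and genes with a mean of at least 20 CPM were compared. Log2 ratios carry an exact conditional binomial 95% interval and shares an exact Clopper-Pearson one, both for counting error only, the interval of the difference in share adds the half-widths of both shares in quadrature, and a list's interval comes from binomial order statistics over its genes. A count of 0 was set to a floor of 3 counts per library. Shares of cells with a UMI were taken after thinning each cell to 8000 UMIs (seed 1). Free RNA was read from barcodes with at most 100 UMIs. Named genes were the 12 highest and 12 lowest in KO over WT, the 25 highest over the other called cells and the 10 farthest from the ratio in those cells (all with 50 CPM), together with the members of the fixed lists, and for lists outside the lineage the 2 highest in level and 2 largest in ratio. Genes picked by other rules are described as chosen after their values were seen. Fam132b, Ahsp and Azu1 of the lists were not used here, and some genes the rule names are not reported here. With 1 library per group no test between groups was run. Steps used Python 3.11.15, numpy 2.4.6, scipy 1.17.1, pandas 2.3.3 and matplotlib 3.10.9, and the ratio and interval code was tested on simulated data.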

Additional observations from a re-analysis of the deposited data

How the results depend on the processing

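Alternatives changed 1 choice at a time. Besides those planned, 5 were chosen after seeing the data, namely leaving out the pair of KO cells that stood apart, giving each cell equal weight, taking only members with or without a Car1 UMI, and leaving out the cell with most UMIs of a gene. Shares and genes' ratios were read against their counting interval, list medians against the order-statistic interval over genes, and counts of genes against 1.5 times. Of the values that answer a comparison, 288 stayed within these limits, 48 went past them and 8 reversed. Of the named genes' values 989, 342 and 36 did. No paired analysis was possible because each genotype has 1 library and the labels give no replicate numbers. Few cells (80) and sums of 559906 UMIs in KO limit every ratio of a low gene, and the cause of the shifts below was not tested.

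With a UMI cutoff of 16000 the KO share was 0.394% and the difference -0.693 points, 221 genes were 2-fold higher, and the medians were 0.37 for G2/M, 0.50 for glycolysis, -0.031 for NF-κB and early response, and 0.047 for 5p-site genes. With 3 of 4 markers the shares were 0.410% in WT and 0.183% in KO, 358 genes were higher and 340 lower, G2/M was 0.41 and glycolysis 0.098, and Tmem245 (-0.68), Car1 (0.052), Blvrb (0.061), Cd53 (-0.19), Plek (-2.04) and Rap1b (-0.37) reversed. A granule limit of 5 gave G2/M 0.29. Without any megakaryocyte marker, which kept 16 WT and 5 KO cells, the shares were 0.298% and 0.0916%, the counts 783 and 526, and the medians -0.22 for Epor signalling, 0.65 for haem, 0.51 for membrane, 0.56 for progenitor, 0.35 for stem cell, 0.15 for S phase, 0.63 for G2/M, 0.15 for oxidative phosphorylation, -0.15 for glycolysis, 1.12 for NF-κB, 0.13 for 5p-site and 0.22 for 3p-site genes. Car1 (0.44), Gm15915 (-0.43), Blvrb (0.80), Car2 (0.51), Gstm5 (0.12), Cd55 (-0.25), Tuba8 (-0.93) and Bcl11a (0.048) reversed there. Without cells over 2 times the median UMIs oxidative phosphorylation was 0.13 and glycolysis -0.027, and Tmem245 (-0.70), Car1 (0.37), Blvrb (0.25), Mt2 (0.044), Car2 (0.053) and Cd53 (-0.58) reversed. Thinning to 8000 UMIs gave a KO share of 0.385%, counts of 514 and 429, and medians of 0.53 for stem cell, -0.46 for S phase and -0.063 for G2/M genes, and reversed Ctsc (-1.18), Tmem245 (-0.99), Mt2 (0.59), Cd69 (-0.12) and Tuba8 (-0.41).

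A floor of 50 CPM left 51 genes higher and 11 lower, and no floor 543 and 911, with 3p-site genes at 0.017. Without the pair of KO cells haem was -0.065, G2/M -0.051 and oxidative phosphorylation -0.037, and Tmem245 (-1.52) and Cd53 (-0.36) reversed. Equal weight gave G2/M -0.094 and glycolysis 0.045. Members with a Car1 UMI gave counts of 409 and 305, stem cell 0.69, G2/M 0.61 and 5p-site genes 0.076, and reversed Tmem245 (-0.92), Cd34 (0.49) and Plek (-0.22). Members without one gave 266 and 281 and G2/M -0.25, and reversed Gm15915 (-0.91), Blvrb (0.81), Mt2 (2.13) and Ugcg (0.052). Leaving out the top cell of each gene reversed Tmem245 (-0.45) and Cd53 (-0.18).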
